A study of Homo sapiens with 12 samples.

Results

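JEKO-1 cells that received KPT-330 and choline salicylate together for 48 h (KPT-330+CS, 3 libraries) were compared with cells that received DMSO, the solvent control (3 libraries), over all expressed genes. These 6 libraries, taken by the treatment in their column names, are part of 12 bulk RNA-seq libraries. The other 6, with KPT-330 alone (3) and choline salicylate alone (CS, 3), serve here only to show where the state with both drugs differed from that with 1 drug. JEKO-1 is an established cell line of mantle cell lymphoma, a B cell cancer driven by the cyclin D1 gene CCND1, so that each group is a single line and not a sample of patients. The drug concentrations of these libraries and whether replicates came from separate cultures are not stated in the labels, and p-values therefore measure the spread between libraries, which may be technical.

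KPT-330 (selinexor) binds CRM1, the product of XPO1, a nuclear export receptor that carries proteins with leucine-rich export signals out of the nucleus together with the GTPase Ran. Blocked export holds tumour suppressors, inhibitors of NF-kappaB and cell cycle regulators in the nucleus, and B cell lymphomas are among the cancers in which the drug is used. Salicylates such as CS are anti-inflammatory compounds related to aspirin. The study asked, by its title, how salicylates add to the action of a CRM1 inhibitor on S phase and on DNA repair.

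The 12 libraries held between 35325563 and 59490178 counted reads over 64253 annotated genes, of which 28113 had no read. Levels are given as CPM, the counts of a gene scaled to a common library size, after TMM, a factor that sets most genes of 2 libraries equal, so they are relative and total RNA per cell was not measured. Within-group variation of a gene (the biological coefficient of variation) was 15.5% in DMSO, 10.9% with KPT-330+CS, 11.9% with CS and 2.87% with KPT-330. Within a group the libraries also varied in GC bias: relative to the mean of all libraries, the change in log2 level per 10 percentage points of GC ran from -0.34 to 0.09 over DMSO and from -0.16 to 0.14 over KPT-330+CS libraries. B cell markers summed to between 1822 and 1839 CPM in DMSO libraries and to between 2536 and 2600 CPM with KPT-330+CS, mostly from MS4A1. All 7 were tested, and 2 were higher, 1 lower and 4 not called. Plasma cell markers, several of which B cells also express, summed to between 470 and 506 CPM in DMSO and between 431 and 447 CPM with both drugs, with 2 of 7 tested genes higher and 4 lower. The 6 erythroid genes reached at most 0.0603 CPM in sum, with HBA1, HBA2, HBB, ALAS2 and AHSP at 0 reads, and 9 myeloid genes reached at most 4.39 CPM, with S100A8, S100A9 and MPO at 0. The 5 epithelial genes summed to at most 2.35 CPM, with KRT19 at 0. The 10 T and NK cell genes summed to 11.4 to 12.4 CPM in DMSO and 4.71 to 5.76 CPM with both drugs, mostly from TRAC, and the fibroblast and endothelial list to 20.3 to 21.4 and 37.1 to 38.0 CPM, mostly from PECAM1, with COL1A2 at 0.

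About 1 in 2 expressed genes differed between the cells with both drugs and the control. Of 18381 tested genes, 4932 were higher with KPT-330+CS, or 26.8%, and 4370 were lower, or 23.8%, by edgeR's quasi-likelihood test at an adjusted p of 0.05 or less. Most of these differences were small: 66.7% of the called genes changed by less than 2-fold, and the median log2 fold change was 0.93 among those that rose and -0.59 among those that fell. By at least 2-fold (log2 of 1), 2280 genes rose, or 12.4% of those tested, and 816 fell, or 4.44%. Past the limit of the study (log2 beyond 2), 577 were higher, or 3.14%, and 131 lower, or 0.713%. The split between directions rested on the scaling. Under library size alone 6687 genes were higher and 2866 lower, and the median over all tested genes was 0.22 in place of 0.03, so list medians below are to be read against that shift.

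Abundant transcripts were more often lower and scarce ones more often higher. Among 2182 genes with a mean over 100 CPM, 55.4% were lower with both drugs and 12.1% higher, whereas among 5027 genes between 1 and 10 CPM 36.7% were higher and 14.9% lower. Genes at 1 CPM or more numbered 13832 ± 101 (SD, n = 3) in DMSO and 14425 ± 56.1 with KPT-330+CS. By biotype, 47.6% of 1247 antisense and 43.9% of 1230 long intergenic non-coding genes were higher, against 25.2% of 12821 protein-coding genes. The reads were not strand-specific by library kit, so an antisense gene and its partner cannot be told apart where they overlap. Small nucleolar RNAs went the other way, with 34.8% of 221 lower and 4.52% higher. The libraries were made from polyA RNA, which limits what values of small RNAs show. A further share covered antisense, long intergenic, sense-intronic, sense-overlapping and processed-transcript genes, and left out ribosomal and small RNAs. These genes took 1.93% ± 0.0321 of reads in DMSO and 2.50% ± 0.0451 with both drugs (SD, n = 3). On chromosome 19, 28.6% of 1263 genes were higher and 12.1% lower, and of 4467 genes with a GC content above 55.9% it was 25.8% and 12.2%; which of GC content, level and position these shares follow was not tested.

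**Figure D1:**
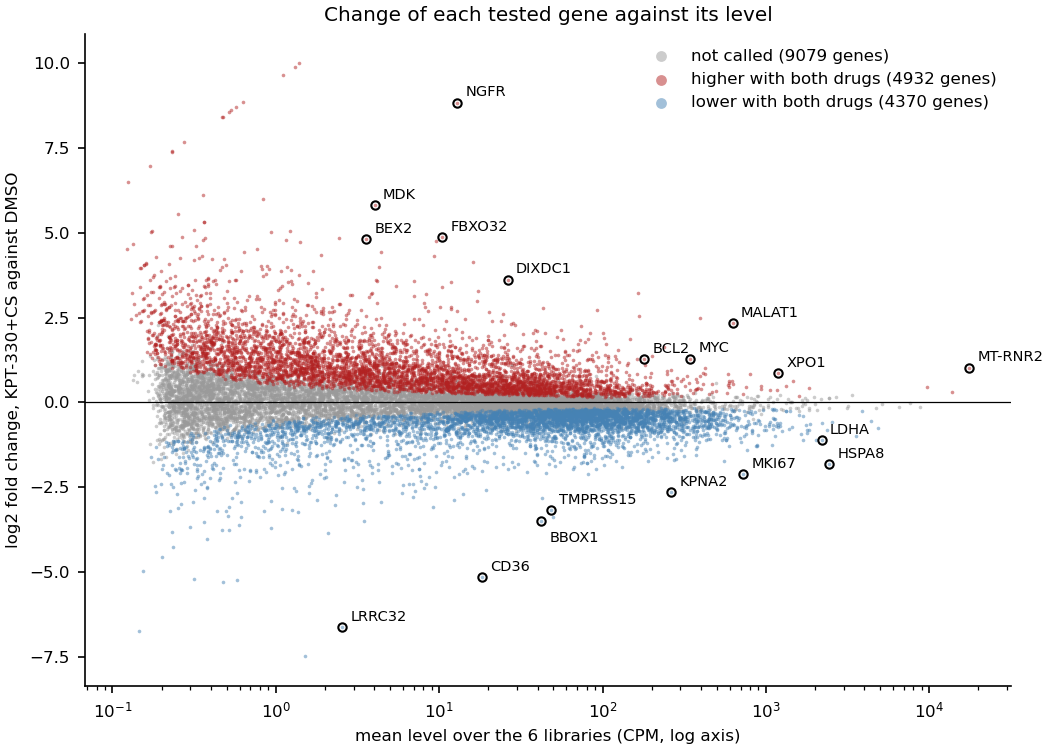
Log2 fold change of KPT-330+CS against DMSO (vertical axis) against the mean level over the 6 libraries (CPM, log axis), 1 point per tested gene, coloured by call. The 4370 lower genes lie mainly over 10 CPM and the 4932 higher genes mainly under it; circled genes are described in the text.

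**Figure D2:**
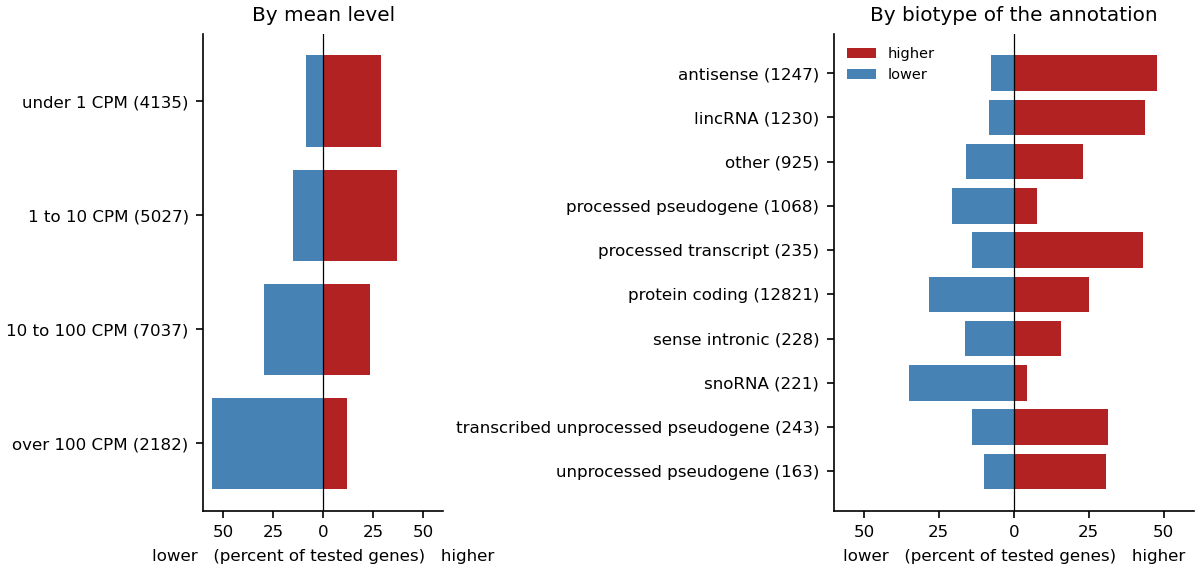
Percent of tested genes called higher (red, right) and lower (blue, left) with KPT-330+CS, by mean level and by biotype, with the number tested in brackets. Over 100 CPM 55.4% were lower, and antisense and lincRNA genes had 47.6% and 43.9% higher.

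A few transcripts moved a visible part of the library. MT-RNR2, the large ribosomal RNA of mitochondria, stood at 10304, 11600 and 12830 CPM in DMSO and 22411, 23076 and 25226 CPM with KPT-330+CS, a log2 fold change of 1.03 ± 0.10 (SE; adjusted p = 8.52e-05). The mitochondrial ribosomal RNAs took 1.15% ± 0.0976 of all reads in DMSO and 2.61% ± 0.121 with both drugs (SD, n = 3), with no overlap between the groups. MALAT1, a long nuclear RNA of speckles, was at 182, 208 and 227 CPM and rose 5.08-fold to 989, 1001 and 1153 CPM (adjusted p = 2.78e-06). MT-CO2, a subunit of cytochrome c oxidase, rose 1.36-fold (adjusted p = 0.00363). MT-CO1, of the same enzyme, rose 1.23-fold (adjusted p = 0.0153), a call that was lost without DMSO replicate 2 (adjusted p = 0.0605) or without KPT-330+CS replicate 2 (0.0593). The largest losses of share were in protein folding and other housekeeping genes. HSPA8, the constitutive cytosolic HSP70, went from 3454, 3791 and 4129 CPM to 1013, 1051 and 1153 CPM. HSP90AB1 fell 1.69-fold, LDHA (lactate dehydrogenase) 2.16-fold and TUBA1B (alpha-tubulin) 2.14-fold, each with separate groups. HNRNPA2B1, an RNA-binding protein, fell 1.97-fold, but its reads may include those of the overlapping CBX3.

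At the top of the ranking, among genes at 5 CPM or more, stood NGFR, the low-affinity neurotrophin receptor of the TNF receptor family. Its level was 0.0616, 0 and 0.0970 CPM in the DMSO libraries and 30.3, 26.1 and 21.0 CPM with KPT-330+CS, a log2 fold change of 8.84 ± 0.37 (adjusted p = 2.78e-06), from 7 reads to 3674 in all. KPT-330 alone gave 10.1, 11.0 and 11.2 CPM, and the combination was above it by 1.26 on the log2 scale (adjusted p = 2.69e-05). MDK, the growth factor midkine, rose from 0.226, 0.0733 and 0.0970 to 10.1, 7.65 and 6.00 CPM but stayed below the 17.0, 18.2 and 19.0 CPM of KPT-330 alone (log2 difference -1.19, adjusted p = 0.000621). FBXO32, a ubiquitin ligase subunit induced in muscle wasting, rose 29.2-fold, from 0.616, 0.685 and 0.776 to 19.6, 19.6 and 21.3 CPM. BEX2 rose 28.1-fold, the calpain protease CAPN5 26.9-fold, DIXDC1, of the Wnt pathway, 12.3-fold, and ZDHHC11B, of the palmitoyltransferase family, 12.3-fold. TP53INP1, a stress-induced gene, was at 0.883, 0.660 and 1.11 CPM and rose to 16.0, 18.3 and 18.5 CPM, with reads that may in part belong to the overlapping NDUFAF6. C1orf54 rose 21.7-fold, with an overlap with APH1A. GOLGA7B and MTSS1L rose 10.9-fold and 10.7-fold to about the levels of KPT-330 alone, with log2 differences from it of -0.07 and -0.26 that were not called (adjusted p = 0.611 and 0.219). The last of the 12, the mitochondrial arginine tRNA gene MT-TR, went from 1.44, 1.91 and 2.23 to 20.7, 23.3 and 21.5 CPM. Selection of polyadenylated RNA by the library kit limits what these values show of the tRNA itself.

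At the bottom stood LRRC32, which encodes the surface anchor of latent TGF-beta, with 6.20, 4.35 and 4.56 CPM in DMSO and 0.0402, 0.0533 and 0.0530 CPM with both drugs, 668 reads against 7. KPT-330 alone already left it at 0.0571, 0.0594 and 0.0874 CPM, and the combination was not tested against that. CD36, a fatty acid and lipoprotein receptor, fell from 32.0, 35.9 and 38.5 to 0.784, 1.15 and 1.06 CPM, 35.7-fold (log2 -5.16 ± 0.16, adjusted p = 9.28e-07). With KPT-330 alone it was at 7.06, 7.30 and 7.68 CPM and with CS alone at 15.8, 15.8 and 14.4 CPM, and the combination lay below both (log2 differences -2.89 and -3.95, adjusted p = 7.22e-08 and 3.82e-07). BBOX1, the last enzyme of carnitine synthesis, fell 11.2-fold with both drugs, from 69.9, 77.3 and 84.8 to 6.43, 6.69 and 7.50 CPM. KPT-330 alone left it at 87.3, 87.4 and 87.3 CPM, and the combination was lower (log2 difference -3.66, adjusted p = 1.64e-11). ABCA6, a lipid transporter of the ABC family, fell 10.4-fold and TMPRSS15, the protease enteropeptidase, 9.05-fold, both below either drug alone. SIRPA, a receptor for CD47, fell 11.2-fold and FCRL2, a B cell receptor of the Fc receptor-like family, 7.07-fold. EGR1, an immediate-early transcription factor, fell from 5.83, 5.99 and 6.50 to 0.724, 0.693 and 0.883 CPM. BCL2A1, an anti-apoptotic NF-kappaB target, fell 7.28-fold and PIR, the NRF2 target pirin, 6.87-fold. Neither was shown to differ from KPT-330 alone (log2 differences -0.09 and 0.25, adjusted p = 0.630 and 0.197). RNF175 fell 6.37-fold, and the list ends with KPNA2, described with nuclear transport.

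Some genes crossed between near silence and expression. Under 0.1 CPM on average in DMSO and at 1 CPM or more with KPT-330+CS were 20 annotated genes, 9 of them protein-coding. All 20 were called, which adds nothing, since the rule picked them from the same libraries by a large difference. Of these, SNORD3A and ACEA_U3 overlap at 1 locus, with 152 and 151 reads with both drugs, and may carry the same reads. GPR97, an adhesion G protein-coupled receptor of myeloid cells, had 0 reads in DMSO and 372 with both drugs, at least 113-fold higher against a floor of 3 reads over the group. Its mean of 2.62 CPM with both drugs was below the 4.77 CPM of KPT-330 alone (log2 difference -0.87, adjusted p = 0.00456). C5AR1, the receptor for complement C5a, had 3 and 235 reads, 71.3 times as many after scaling (95% counting interval 24.1 to 348). LXN, the carboxypeptidase inhibitor latexin, was at 0.0410, 0.122 and 0.0485 CPM in DMSO and 2.59, 2.19 and 2.30 CPM with both drugs. SFRP5, a secreted Wnt antagonist, rose 16.4-fold, the lipid carrier APOD 15.4-fold, the adaptor APBA2 16.2-fold and MFAP4, of the extracellular matrix, 27.9-fold, the last with an overlap with MAPK7. Of the 3 tested genes of the myeloid marker list, CD14 fell 5.06-fold, LYZ fell 2.10-fold and CSF1R was not called (log2 1.24 ± 0.55, adjusted p = 0.0944). The reverse held for 4 genes, all protein-coding. CCL22, a chemokine, had 392 reads in DMSO and 2 with both drugs, 215 times fewer after scaling (95% counting interval 59.3 to 1786), and the others were LRRC32, the heme oxygenase gene HMOX1 and SGPP2, a sphingosine phosphate phosphatase. HMOX1 went from 1.60, 0.929 and 0.848 CPM to 0, 0.0267 and 0.0530 CPM and SGPP2 from 0.718, 1.47 and 1.16 to 0.101, 0 and 0.141 CPM.

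**Figure D3:**
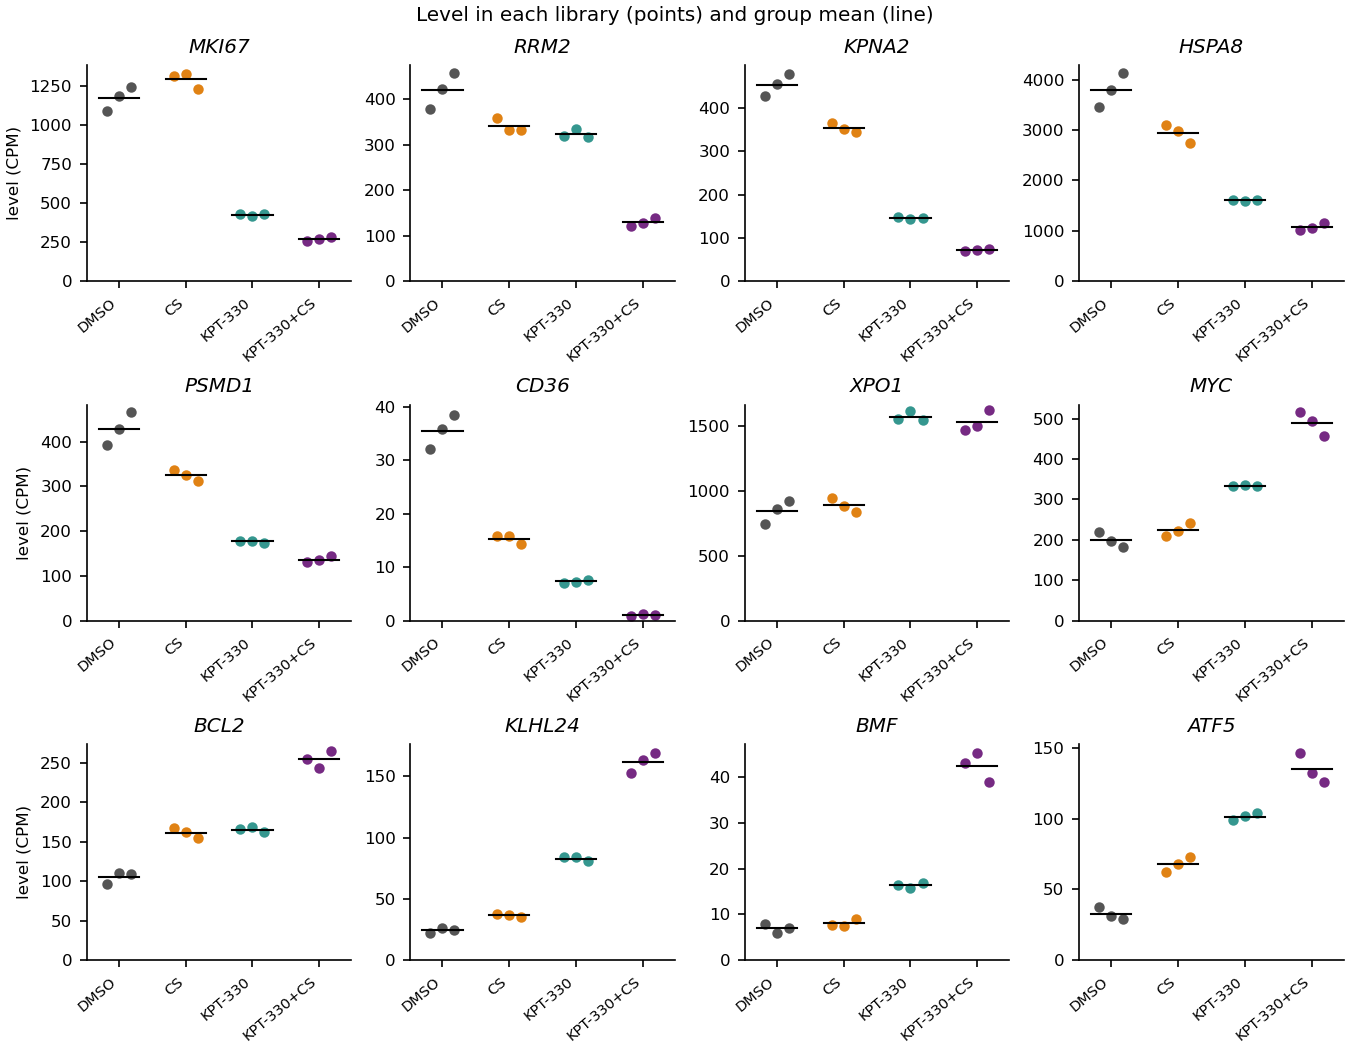
Level (CPM, linear axis from 0) of 12 genes in each library (points) and the mean of each group (line), for DMSO, CS, KPT-330 and KPT-330+CS. In all 12 genes the KPT-330+CS libraries lie apart from the DMSO libraries, for example at 257 to 281 CPM against 1092 to 1244 CPM for MKI67. The same held for 58.3% of all tested genes. The rule that named the highest and lowest genes, CD36 and KPNA2 among them, required it.

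The target gene itself rose. XPO1 was at 749.6, 862 and 922 CPM in DMSO and 1470, 1500 and 1623 CPM with KPT-330+CS, 1.81-fold higher (log2 0.86 ± 0.09, adjusted p = 0.000139). KPT-330 alone gave 1555, 1618 and 1550 CPM, and the combination was not shown to differ from that (log2 difference -0.04, adjusted p = 0.545). Most other genes of nuclear transport fell: of 30 tested members 24 fell and 2 rose, with a median log2 fold change of -0.54. Among 17 import receptors 15 fell. KPNA2, an importin alpha that carries cargo with classical import signals, was at 427, 456 and 478 CPM and fell 6.29-fold to 72.1 ± 2.54 CPM (SD, n = 3; adjusted p = 9.28e-07). KPNA3 and KPNA4, of the same family, fell 2.15-fold and 2.06-fold. Of 7 export receptors 4 fell and 2 rose, XPO1 and XPO6, the exporter of actin, which rose 1.33-fold (adjusted p = 0.00115). Ran and its regulators were 6 genes of which 5 fell. IPO8 and XPOT (log2 -0.00 ± 0.08 and 0.05 ± 0.09) were not called, and with library size alone both were higher (adjusted p = 0.0372 and 0.0256).

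The lowest median of the pathway lists shown was that of G2 and mitosis, where 54 of 55 members were lower and 0 higher. Their median log2 fold change was -1.47, and 45 of the 55 fell by at least 2-fold. MKI67, the proliferation marker Ki-67, went from 1092, 1191 and 1244 CPM to 257, 273 and 281 CPM, 4.35-fold lower (adjusted p = 1.6e-06). CENPA, the centromeric histone, fell from 52.5, 56.7 and 57.1 to 13.1, 14.3 and 13.1 CPM, with an overlap with SLC35F6. BIRC5, or survivin, fell 3.78-fold, from 118, 104 and 95.3 to 31.6, 28.3 and 24.3 CPM. Against KPT-330 alone, where 23.6% of 18906 tested genes were lower and 23.6% higher, 52 of these 55 genes were lower and 0 higher (median log2 difference -0.65). The exception was CDC25B, a phosphatase that activates CDK1 (log2 -0.18 ± 0.15, adjusted p = 0.348). In bulk libraries a smaller share of cells in a phase and less RNA per cell in that phase cannot be told apart.

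Many promoters of these genes hold the letters of the CHR element, TTTGAA, through which the DREAM complex and MuvB act at genes of late cell cycle. RefSeq promoters (GRCh38.p14) were searched over the 250 bases before the annotated start. The element stood on either strand in 22 of 45 promoters of the members that fell, or 48.9%. This compares with 13.6% of 27305 promoters and 8.77% of the 11219 promoters of tested genes. The CCAAT box stood in 68.9% of the 45, against 33.0% of all promoters, and the DNA replication members that fell had the CHR letters in 0 of 35 promoters. A match of letters is a description and not a measured site. Shown are the 250 bases before the start of MKI67, CENPA and HMMR, 3 of the 4 members with the largest falls, each with the CHR letters in capitals within 50 bases of the start. HMMR, a spindle protein (log2 -1.90 ± 0.10), was chosen after its values were seen. The windows are chr10:128126424-128126673 (minus strand), chr2:26785806-26786055 (plus strand) and chr5:163460382-163460631 (plus strand), written 5′ to 3′ along each gene.
MKI67: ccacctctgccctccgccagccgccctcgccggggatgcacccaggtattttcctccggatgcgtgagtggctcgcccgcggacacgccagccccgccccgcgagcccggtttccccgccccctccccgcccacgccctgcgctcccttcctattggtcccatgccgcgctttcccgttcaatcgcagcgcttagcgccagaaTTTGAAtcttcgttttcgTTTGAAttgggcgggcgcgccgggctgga
CENPA: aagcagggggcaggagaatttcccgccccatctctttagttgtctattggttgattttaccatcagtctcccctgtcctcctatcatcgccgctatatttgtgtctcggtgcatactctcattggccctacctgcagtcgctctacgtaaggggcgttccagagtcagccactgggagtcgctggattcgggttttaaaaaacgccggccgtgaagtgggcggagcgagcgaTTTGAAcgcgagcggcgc
HMMR: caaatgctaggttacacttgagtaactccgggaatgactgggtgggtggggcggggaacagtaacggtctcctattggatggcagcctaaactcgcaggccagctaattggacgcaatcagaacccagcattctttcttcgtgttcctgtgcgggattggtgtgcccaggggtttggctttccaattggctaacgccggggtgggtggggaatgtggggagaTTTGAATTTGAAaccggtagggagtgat
The first letter of the element was 47 and 29 bases before the start in MKI67, 18 in CENPA and 28 and 22 in HMMR.

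DNA replication followed at a smaller size. Of 49 genes 40 fell and 0 rose (1 without DMSO replicate 3), with a median of -0.57, among them 20 of the 23 of origin licensing and firing. CLSPN, the checkpoint adaptor claspin, fell 3.31-fold, from 114, 134 and 143 to 37.9, 39.6 and 40.6 CPM. CDC45, of the replicative helicase, fell from 129, 116 and 104 to 42.5, 41.6 and 39.4 CPM (2.83-fold) and MCM10, which fires origins, 2.46-fold. KPT-330 alone left the list near the control, with a median of -0.03, and against it 43 of the 49 genes were lower with both drugs. RPA1, which overlaps SMYD4, and ORC6 were not called (log2 0.02 ± 0.06 and -0.05 ± 0.06). Nucleotide supply went the same way, with 20 of 29 genes lower and 2 higher (median -0.50), or 1 higher without DMSO replicate 2 or KPT-330+CS replicate 1 or 2. RRM2, the small subunit of ribonucleotide reductase, was at 378, 423 and 459 CPM in DMSO and 122, 128 and 139.8 CPM with both drugs. Each single drug left it above the combination, at 324 CPM with KPT-330 and 342 CPM with CS. CTPS1, CTP synthase, fell 3.48-fold and TYMS, thymidylate synthase, 2.30-fold, the latter with an overlap with ENOSF1. TK2, the mitochondrial thymidine kinase, rose 3.10-fold, from 1.27 ± 0.268 to 3.91 ± 0.256 CPM (mean ± SD, n = 3). The replication-dependent histones had 19 of 40 members lower and 3 higher (median -0.60), or 1 higher without any one of the 6 libraries, with HIST1H3G down 3.81-fold and HIST2H2BE, whose transcripts can carry poly(A) tails, up 1.57-fold. Their transcripts mostly lack poly(A) tails, and the selection of polyadenylated RNA by the library kit limits what these values show.

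In control of cell cycle entry, 8 of 12 E2F and pocket protein genes fell and 2 rose, 3 of 8 cyclin, CDK and phosphatase genes fell and 1 rose, and of 7 CDK inhibitors 1 fell and 1 rose. Among the first, E2F8 fell 2.55-fold and E2F2 2.44-fold, from 157, 144 and 130.2 to 59.5, 60.6 and 56.8 CPM. CDC25A, the phosphatase of the G1 to S transition, fell 2.51-fold. CCND2, cyclin D2, rose 2.44-fold from a low level (1.74, 2.18 and 2.21 CPM) to 4.38, 5.17 and 5.35 CPM. CCND1, the driver of this lymphoma, was not called: it was at 585, 401 and 301 CPM in DMSO and 549, 486 and 348 CPM with both drugs, with wide and overlapping groups (log2 0.10 ± 0.25, adjusted p = 0.759). SOX11, a transcription factor typical of mantle cell lymphoma, was also not called (log2 0.14 ± 0.07). CDK2, CDKN2C and CCNE2 were not called either (log2 -0.05 ± 0.06, -0.01 ± 0.07 and 0.12 ± 0.13). Over the whole list of 27 genes 12 fell and 4 rose, or 2 rose without DMSO replicate 2 or KPT-330+CS replicate 2. Of all tested genes 23.8% fell and 26.8% rose, and the role groups are too small to set against these shares. The median of -0.05 became 0.13 with library size alone, where 9 fell and 8 rose.

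The genes of homologous recombination and the Fanconi pathway, which repair breaks and crosslinks, were lower in 28 of 41 cases and higher in 3, with a median of -0.46 and no change of 2-fold. GEN1, a resolvase, fell 1.91-fold (its reads overlap SMC6), FANCD2 1.88-fold, from 137, 149 and 159.9 to 73.2, 76.4 and 87.3 CPM, and the helicase BLM 1.86-fold. BRCA1 went from 89.6, 98.6 and 109 to 65.3, 72.8 and 75.4 CPM (1.39-fold lower, adjusted p = 0.00287). With KPT-330 alone BRCA1 was at 92.4 CPM, and the list median was -0.04, while against that drug 27 of the 41 were lower with both drugs. The 3 that rose were RMI2 (1.44-fold), FANCF (1.44-fold) and the nuclease gene MRE11A (1.40-fold). In the damage checkpoint 14 of 21 genes fell and 4 rose (median -0.34). CHEK1, the S phase checkpoint kinase, fell 1.54-fold, with an overlap with STT3A, and WEE1, which holds CDK1 inactive, 2.28-fold, from 354, 394 and 438 to 161, 173 and 187 CPM. ATM, the kinase of double-strand breaks, rose 1.70-fold, from 262, 297 and 321 to 470.2, 495 and 534 CPM, and TP53BP1 1.34-fold with an overlap with TUBGCP4. Without DMSO replicate 2, or with library size alone, 9 of the 21 checkpoint genes were lower.

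Among single genes of arrest and the damage response, CDKN1A, the CDK inhibitor p21, was at 7.84, 6.70 and 5.53 CPM in DMSO and 9.43, 8.18 and 6.89 CPM with KPT-330+CS, with overlapping groups (log2 0.29 ± 0.17, adjusted p = 0.193). MDM2, a ubiquitin ligase, was not called (log2 0.02 ± 0.09). BBC3 (PUMA), which promotes apoptosis, rose 6.49-fold from 0.636, 0.489 and 0.412 CPM, and DDB2, a damage sensor, 2.02-fold. C12orf5 (TIGAR), a regulator of glycolysis, fell 3.51-fold, from 70.0, 74.1 and 75.1 to 20.1, 20.7 and 21.5 CPM, and the nuclease AEN 2.32-fold.

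The BCL2 family, which sets the threshold of apoptosis, had 6 of 14 genes higher and 5 lower (3 lower without DMSO replicate 2). Of all tested genes 26.8% were higher and 23.8% lower. BCL2 itself, an inhibitor of apoptosis, rose from 96.1, 110.4 and 109.8 CPM to 255, 244 and 265 CPM, 2.42-fold (adjusted p = 9.9e-06). This was above KPT-330 alone (165 CPM) and CS alone (161 CPM), by 0.62 and 0.66 on the log2 scale (adjusted p = 1.02e-06 and 2.18e-05). BCL2L2 (BCL-W) rose 3.13-fold, with an overlap with BCL2L2-PABPN1 and PPP1R3E. MCL1 fell from 506, 567 and 626 to 327, 342 and 370.2 CPM, 1.63-fold, and BCL2A1 7.28-fold, from 19.3, 21.7 and 23.8 to 2.69, 2.96 and 3.23 CPM. Of 7 tested BH3-only genes, which promote death, 4 rose and 1 fell. BMF was at 7.92, 5.97 and 6.91 CPM and 43.1, 45.2 and 38.8 CPM, 6.10-fold higher and above KPT-330 alone by 1.37 (adjusted p = 8.02e-08). PMAIP1 (NOXA) was not called (log2 -0.04 ± 0.08), nor was the effector BAX (log2 -0.41 ± 0.23, adjusted p = 0.177). The BAX call depended on the libraries and the fit, with adjusted p = 0.0372 without DMSO replicate 3 and 3.57e-05 with the GC correction.

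**Figure D4:**
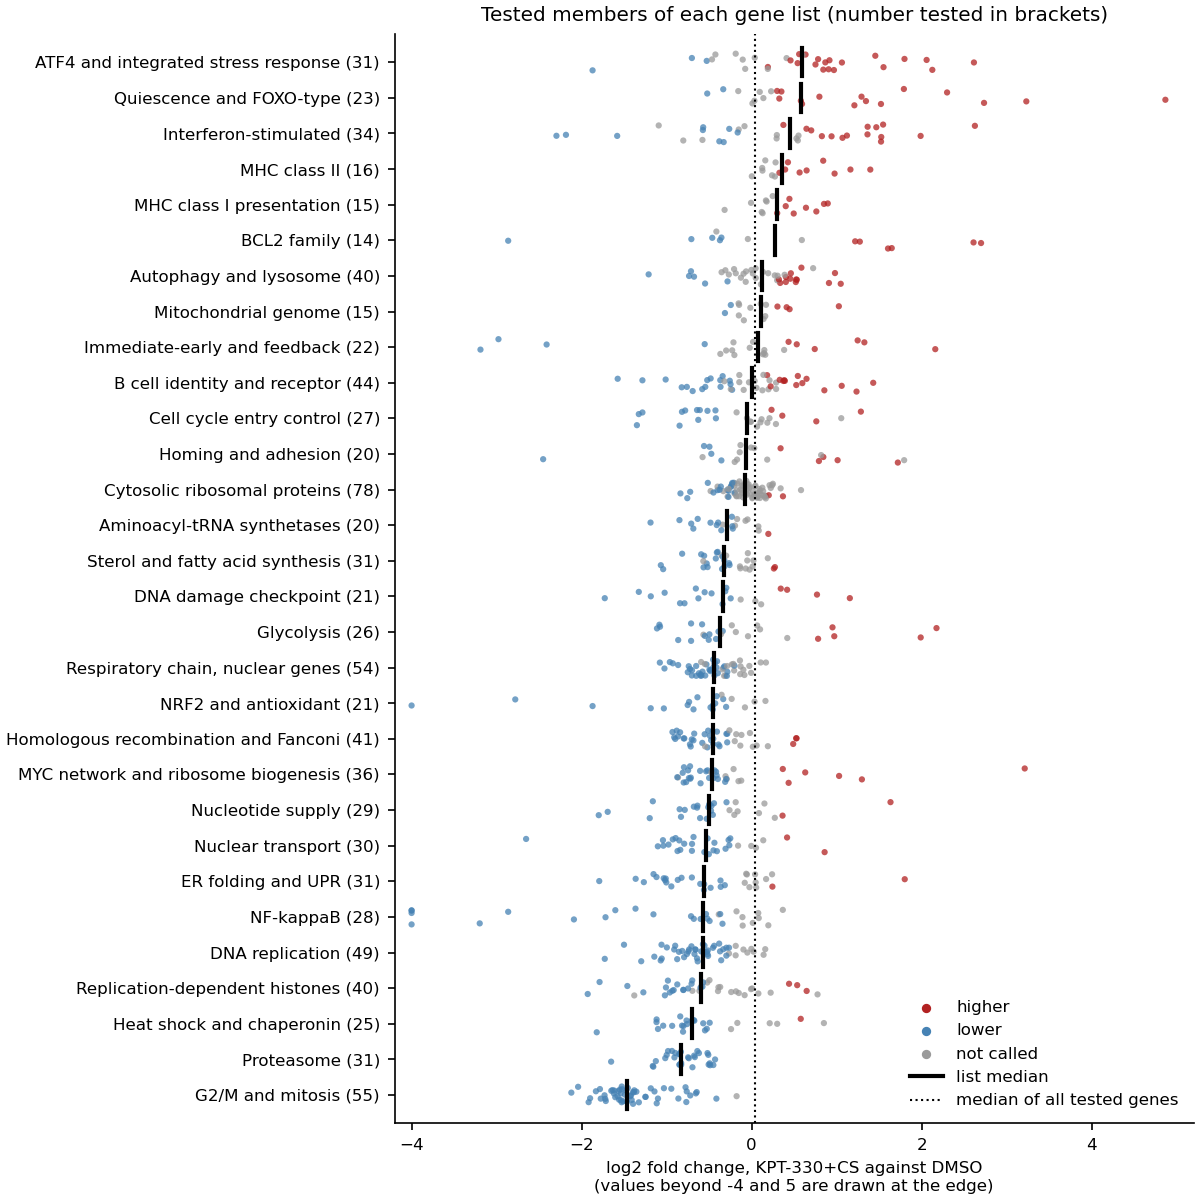
Log2 fold change of KPT-330+CS against DMSO for each tested member of each gene list (points, coloured by call; number tested in brackets), with the list median (bar) and the median of all tested genes (dotted line). G2 and mitosis genes lie lowest with a median of -1.47, and the ATF4 list highest with 0.60.

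Targets of ATF4, the transcription factor of the integrated stress response that is made when translation slows, had 19 of 31 members higher and 3 lower, with a median of 0.60. CS alone gave these members a median of 0.36 and KPT-330 alone 0.15. ATF5, a related factor, rose 4.16-fold, from 37.3, 30.9 and 29.0 to 147, 132 and 126 CPM, with an overlap with NUP62. It was above both single drugs, by 0.41 and 1.00 on the log2 scale (adjusted p = 0.000104 and 1.35e-05). CHAC1, which degrades glutathione, rose 4.36-fold and SLC6A9, a glycine transporter, 6.12-fold, each from below 0.4 CPM in every DMSO library and the latter with an overlap with CCDC24. The 3 that fell were SLC7A11, the cystine carrier (3.66-fold, from 23.0, 24.2 and 28.0 to 6.80, 6.69 and 7.05 CPM), HERPUD1 (1.63-fold) and MTHFD2 (1.44-fold). The ATF4 letters TGATGNAA stood in 3 of 17 promoters of the members that rose, against 3.19% of all promoters. Aminoacyl-tRNA synthetases, some of which ATF4 also controls, fell in 12 of 20 cases and rose in 1, AARS, whose call was lost without DMSO replicate 2 (adjusted p = 0.114) and in each of 4 other fits that left out 1 library. VARS fell 2.28-fold and FARSB 1.80-fold. With the GC correction 6 ATF4 targets were lower.

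Most genes of protein folding and all tested proteasome genes fell. In the endoplasmic reticulum list 20 of 31 genes fell and 2 rose (median -0.56), and of 16 chaperones and folding enzymes 14 fell. The number that rose was 4 without DMSO replicate 3, 1 without any one of the other 5 libraries and 6 with library size alone. HSPA5 (BiP), the central chaperone there, was at 414, 452 and 483 CPM and 178, 184 and 198 CPM, 2.41-fold lower, and HYOU1 fell 2.57-fold. DERL3 rose 3.48-fold, from 7.16, 5.04 and 3.32 to 21.6, 18.8 and 14.0 CPM, with an overlap with SMARCB1. The CCAAT letters stood in 16 of 18 promoters of those that fell, or 88.9%, against 33.0% of all promoters. Such a share was not limited to lists that fell. Of MHC class II genes that rose, 8 of 9 promoters held the letters, and of autophagy and lysosome genes that rose 3 of 11. Of 25 heat shock and chaperonin genes 19 fell and 1 rose (2 without DMSO replicate 1, median -0.71). HSPA8, given above, fell 3.54-fold (adjusted p = 4.63e-06), and was below KPT-330 alone (log2 difference -0.58, adjusted p = 5.42e-06). CCT6A, of the chaperonin that folds actin and tubulin, fell 2.17-fold, and HSPE1, of mitochondria, 2.17-fold, with an overlap with HSPD1. HSPA1B, the inducible HSP70, rose 1.49-fold (adjusted p = 0.0217), a call lost without KPT-330+CS replicate 1 (adjusted p = 0.0587) or 2 (0.0734). Its near-identical copy HSPA1A makes its counts uncertain. The letters GAANNTTC, a minimal heat shock element, stood in 4 of 18 promoters of the members that fell, against 5.85% of all promoters. The 250 bases before the start of HSPA8, the member with the largest loss (chr11:123062137-123062386, minus strand), hold them at 230 and 50 bases before the start, in capitals.
HSPA8: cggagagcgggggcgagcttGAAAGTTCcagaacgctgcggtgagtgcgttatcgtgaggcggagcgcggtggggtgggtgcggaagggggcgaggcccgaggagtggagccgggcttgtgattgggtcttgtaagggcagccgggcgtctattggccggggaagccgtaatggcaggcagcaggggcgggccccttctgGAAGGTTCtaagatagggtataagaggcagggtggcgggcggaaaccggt

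All 31 proteasome genes tested fell, with a median of -0.83 and a range from -1.65 to -0.43. PSMD1, the large scaffold of the regulatory particle, was at 392, 429 and 466 CPM and fell 3.14-fold to 131, 135 and 143 CPM (adjusted p = 4.47e-06), and PSMD2 and PSMD11 fell 2.24-fold and 2.23-fold. With KPT-330 alone the list median was -0.47 and with CS -0.25, and 18 of the 31 were lower with both drugs than with KPT-330. The oxidative stress genes of NRF2 fell in 16 of 21 cases and rose in 0 (median -0.46), or rose in 2 without DMSO replicate 1 and in 1 without DMSO replicate 2 or 3 or KPT-330+CS replicate 3. PIR went from 12.6, 11.9 and 11.9 to 1.89, 1.71 and 1.70 CPM, and SLC7A11 and HMOX1, described above, belong to this list too. FTL, ferritin light chain, was not called (log2 0.16 ± 0.16, adjusted p = 0.428), and its call depended on 1 library, with an adjusted p of 0.0458 without DMSO replicate 1.

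Many nuclear genes of energy metabolism fell. Of 54 nuclear genes of the respiratory chain 36 fell and 0 rose (median -0.44), and of the 12 of ATP synthase 11 fell. ATP5L, a subunit of ATP synthase, fell 2.11-fold, from 256, 250.2 and 232 to 120.3, 115 and 114 CPM, COX5A, of cytochrome c oxidase, 2.04-fold and NDUFS1, of complex I, 1.95-fold. The 13 protein genes of the mitochondrial genome did not follow, with 2 higher, 2 lower and a median of -0.02, while both of its ribosomal RNAs rose. This count moved with single libraries: 5 genes fell without DMSO replicate 1, 1 without KPT-330+CS replicate 3 and 0 without any one of the other 4 libraries. Glycolysis had 13 of 26 genes lower and 5 higher (median -0.38). LDHA was at 2739, 3002 and 3244 and 1307, 1370 and 1476 CPM, HK2 (hexokinase) fell 2.12-fold and PGAM1 2.11-fold. The glucose transporter SLC2A3 rose 4.51-fold from about 1 CPM and the aldolase gene ALDOC 3.97-fold, from 2.93, 2.96 and 2.16 to 11.4, 11.0 and 9.57 CPM. Sterol and fatty acid synthesis had 17 of 31 genes lower and 2 higher (median -0.32). Of the higher, 1 was left without DMSO replicate 1 or KPT-330+CS replicate 1 and 0 without DMSO replicate 2 or KPT-330+CS replicate 2 or 3. SCD, the desaturase that makes oleate, fell 1.76-fold, from 599.8, 650.1 and 684 to 348, 362 and 387 CPM, and FADS2 2.10-fold, with an overlap with FADS1. Of all tested genes 23.8% fell, and of those over 100 CPM, as LDHA, SCD and ATP5L were, 55.4% fell. The shares of glycolysis and sterol genes that fell did not exceed the latter, and that of the respiratory chain did. Scaled by library size alone, 8 glycolysis and 10 sterol genes were lower, and 8 of the 15 genes of the mitochondrial genome higher.

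MYC, a transcription factor of cell growth, rose while genes of ribosome biogenesis fell. MYC was at 220.3, 197 and 182 CPM in DMSO and 518, 495 and 457 CPM with KPT-330+CS, 2.46-fold higher (log2 1.30 ± 0.09, adjusted p = 1.63e-05) and above KPT-330 alone (334 CPM, log2 difference 0.55, adjusted p = 5.34e-06). Of 8 network genes, MYC and its partners, 6 rose. MXD4, an antagonist of MYC, rose 9.27-fold, from 1.89, 1.76 and 1.21 to 17.6, 14.8 and 12.8 CPM, and MXI1, another, 2.04-fold. Of 28 ribosome biogenesis genes 23 fell and 0 rose (median -0.53). NCL, nucleolin, fell 1.74-fold, from 2849, 3026 and 3136 to 1704, 1710 and 1764 CPM, NOP56, of small nucleolar ribonucleoproteins, 1.75-fold and RRS1 1.83-fold. Most of the 78 cytosolic ribosomal protein genes were not called: 17 fell and 2 rose. The share of falls was near the 23.8% of all tested genes and the share of rises below their 26.8%. Among all tested genes over 100 CPM, as RPSA and RPS14 were, 55.4% fell and 12.1% rose. RPSA fell 1.65-fold, from 1453, 1501 and 1478 to 865, 896 and 924 CPM, and RPS26 1.79-fold, while RPS14 was at 1141, 1101 and 1077 and 1132, 1095 and 1128 CPM. Their median of -0.08 became 0.11 with library size alone, where 17 rose and 5 fell. The number that fell was 7 without DMSO replicate 2, 9 and 6 without KPT-330+CS replicates 1 and 2, and 32 with the GC correction. The number that rose was 4 and 5 without DMSO replicates 1 and 3, and 1 without any one of the other 4 libraries.

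Genes of cell cycle exit and FOXO factors, which act when growth signals are low, rose in 15 of 23 cases and fell in 2 (median 0.58). The number that fell was 0 without DMSO replicate 2 or KPT-330+CS replicate 1, 1 without DMSO replicate 1 or KPT-330+CS replicate 2 or 3, and 0 with library size alone. Besides FBXO32, ARRDC3, an arrestin domain protein, rose 9.39-fold, from 28.0, 31.3 and 36.3 to 276, 296 and 325 CPM. KLHL24 was at 22.0, 26.0 and 24.9 CPM and 153, 163 and 169 CPM, 6.65-fold higher and above KPT-330 alone by 0.97 on the log2 scale (adjusted p = 7.85e-08). CCNG2, a cyclin linked to arrest, rose 3.46-fold and TXNIP, which limits glucose uptake, 2.45-fold. Against KPT-330 alone 16 of the 23 were higher with both drugs and 1 lower. BTG2 was not called (log2 0.01 ± 0.09). In autophagy and lysosomes 13 of 40 genes rose and 6 fell (median 0.12), while 26.8% of all tested genes rose and 23.8% fell. The called genes included the receptors OPTN (2.07-fold higher, from 42.1, 44.4 and 43.0 to 88.1, 89.8 and 89.9 CPM) and NBR1 (1.97-fold higher, with an overlap with RP11-242D8.1). The cathepsin gene CTSZ was 2.32-fold lower, with an overlap with NELFCD. With library size alone 20 of the 40 rose, and with the GC correction 13 fell.

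NF-kappaB, the inflammatory transcription factor that many mantle cell lymphomas depend on, had 19 of 28 tested genes lower and 0 higher, with a median of -0.57, also with TNF at its bound. Of 23 targets and feedback genes 17 fell, 11 of them by at least 2-fold, and of 5 subunits 2 fell. Without DMSO replicate 1 or 3, 1 gene of the list was higher. CCL22 was described above, and BCL2A1 also belongs here. TNF had 38 reads in DMSO and 0 with both drugs, at least 13.9-fold lower against the floor of 3 reads. CXCL10 had 39 reads and 1, 42.9 times fewer after scaling (95% counting interval 7.26 to 1736). TNFAIP3, which overlaps RP11-356I2.4, and CFLAR were not called (log2 -0.11 ± 0.08 and 0.08 ± 0.08). The list median was -0.52 with KPT-330 alone and -0.08 with CS alone. PTGS2, the gene of the inducible cyclooxygenase, had 0 reads in every one of the 12 libraries and was not tested.

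Of the interferon-stimulated genes, of antiviral defence, 15 of 34 rose and 9 fell, with a median of 0.45. The share of falls was near the 23.8% of all tested genes and the share of rises above their 26.8%. STAT2, a signal transducer of type I interferon, rose 2.92-fold, from 64.2, 65.9 and 60.1 to 179.7, 187 and 189 CPM, and SAMD9 3.97-fold, from 8.70, 10.5 and 11.1 to 37.8, 41.3 and 40.9 CPM. Both were above KPT-330 alone, by 0.59 and 1.33 on the log2 scale (adjusted p = 9.85e-07 and 9.77e-08). HERC5, the ligase of ISG15, rose 6.17-fold, on 16 reads in DMSO and 111 with both drugs. IFI44L fell 4.55-fold, from 12.4, 14.3 and 16.2 to 2.67, 3.86 and 2.93 CPM, and IFI44 4.91-fold. The number that fell was 5 without DMSO replicate 2, 4 without KPT-330+CS replicate 2 and 4 with library size alone. MHC class II genes, which present antigen to helper T cells, rose in 9 of 16 cases and fell in 0 (median 0.36). HLA-DQB1 rose 2.63-fold, from 12.6, 10.2 and 8.10 to 30.1, 28.0 and 23.3 CPM, and HLA-DOA 2.24-fold, from 36.1, 33.9 and 34.3 to 78.6, 77.6 and 77.3 CPM. HLA-DRA was not called (log2 0.13 ± 0.07). KPT-330 alone gave this list a median of 0.72, and 10 of the 16 were lower with both drugs than with KPT-330, with 1 higher. MHC class I presentation had 8 of 15 higher and 0 lower (1 lower without DMSO replicate 3, median 0.30), with HLA-E at 31.1, 25.7 and 21.7 and 52.1, 46.6 and 42.9 CPM and B2M, the common light chain, at a log2 fold change of -0.01 ± 0.08. HLA genes resemble each other and differ between alleles, so their counts are less certain. With library size alone 14 class II genes were higher.

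B cell identity genes did not move as a group, with 14 of 44 higher, 16 lower and a median of 0.00 that took either sign in other fits. Of 15 transcription factors 4 rose and 7 fell, of 15 surface molecules 7 rose and 2 fell, and of 14 signalling genes 3 rose and 7 fell. SPIB, an ETS factor of B cells that overlaps CTD-2545M3.6, fell 2.98-fold, from 130.1, 117 and 100.2 to 41.9, 38.7 and 35.8 CPM, and PTPN6 (SHP-1) 2.44-fold. CD22, an inhibitory co-receptor, rose 2.69-fold, from 15.0, 13.8 and 13.3 to 38.9, 38.7 and 35.9 CPM, and MS4A1 (CD20), the target of rituximab, 1.56-fold, from 1001, 1145 and 1271 to 1667, 1737 and 1941 CPM. CD5, present on mantle cell lymphoma, fell 2.02-fold. PAX5, which fixes B cell identity, was not called (log2 0.20 ± 0.10). Of the 44, 10 were lower with library size alone.

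Immediate-early and feedback genes of growth signalling had 6 of 22 higher and 4 lower, near the 26.8% and 23.8% of all tested genes. EGR3 fell 9.12-fold, from 1.81, 1.76 and 1.02 to 0.181, 0.107 and 0.194 CPM, and DUSP5, a phosphatase of ERK, 5.32-fold, from 13.5, 14.8 and 13.7 to 2.41, 2.77 and 2.70 CPM. NR4A2 rose 2.37-fold, from 1.17, 1.64 and 1.19 to 3.34, 2.69 and 3.41 CPM. The number that rose was 3 without DMSO replicate 2 and without each of the 3 KPT-330+CS replicates. Homing and adhesion genes had 5 of 20 higher and 5 lower, also near the shares of all tested genes, or 3 lower without DMSO replicate 2 or KPT-330+CS replicate 2. CD9, a tetraspanin, rose 3.29-fold, from 4.78, 4.94 and 4.14 to 15.6, 15.2 and 14.8 CPM.

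The state with both drugs was apart from that with either drug. Against KPT-330, 4462 of 18906 genes were higher and 4453 lower, and against CS, 4724 of 18500 were higher, or 25.5%, and 3944 lower, or 21.3%. With library size alone the latter counts were 6144 and 2828. The KPT-330 libraries varied several times less than the others, so the first of these comparisons has the smaller spread on 1 side. Since the comparisons with DMSO share the DMSO libraries, list medians are set side by side without a test. For G2 and mitosis they were -1.47 with both drugs, -0.73 with KPT-330 and -0.13 with CS. For DNA replication they were -0.57, -0.03 and -0.07, and for homologous recombination and Fanconi genes -0.46, -0.04 and 0.01. Ribosome biogenesis genes gave -0.53, -0.18 and -0.20, and MYC network genes 0.53, 0.38 and 0.10. In MHC class II the median with both drugs, 0.36, was below the 0.72 of KPT-330 and near the 0.35 of CS.

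**Figure D5:**
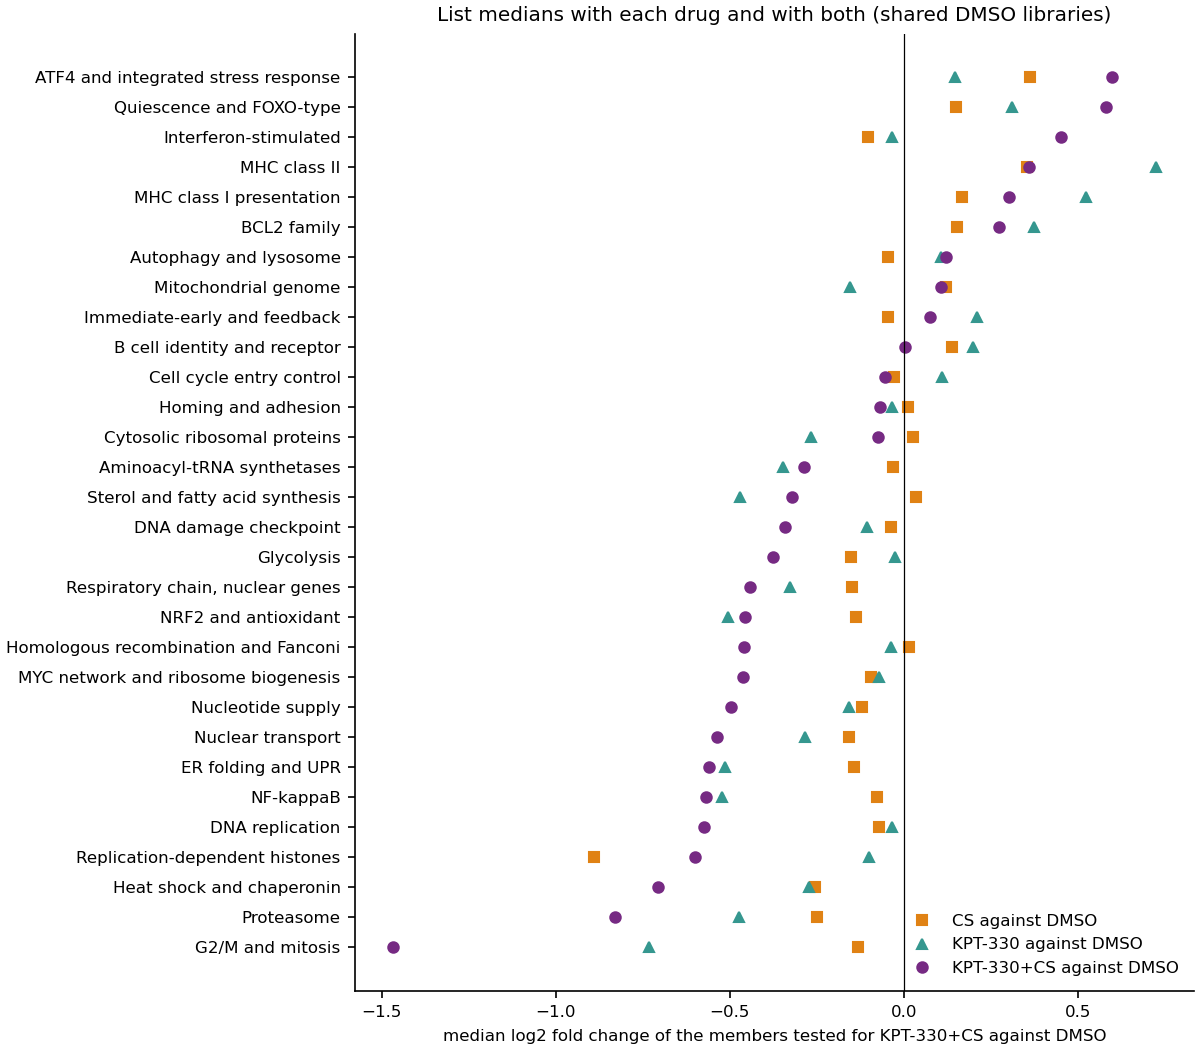
Median log2 fold change against DMSO of each gene list with CS (squares), KPT-330 (triangles) and KPT-330+CS (circles), over the members tested for KPT-330+CS; the 3 comparisons share the DMSO libraries. For DNA replication the medians are -0.07, -0.03 and -0.57, while for MHC class II the combination (0.36) lies below KPT-330 alone (0.72).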

How the data were processed

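Gene-level read counts of the 12 libraries were deposited by the authors as raw counts. Per the labels' protocols, RNA was extracted with an FFPE kit and libraries were made from polyA RNA with a TruSeq RNA v2 kit. Per the series' design text, reads were aligned to hg38 with STAR in a MAP-RSeq workflow and counted on Ensembl 78 genes. For the counting program and its strand setting: not given in the sources used here. Overlapping genes could carry the same reads: 5252 tested genes share exon bases with another gene, and such overlaps are named beside the genes described.

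Counts were tested with edgeR 4.0.16 (R 4.3.3), quasi-likelihood F-test, robust and two-sided, after its filter on low counts by group, with TMM factors over all 12 libraries and Benjamini-Hochberg adjustment over all tested genes; a gene was called at an adjusted p of 0.05 or less. Each fit used only the 6 libraries compared, because the spread within groups differed several-fold. Errors of log2 fold changes are standard errors, and CPM are scaled by TMM. Intervals on few reads (3 or fewer) are exact and cover counting error only. The test was checked on simulated counts.

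The text names the 12 highest and 12 lowest genes (called, at least 5 CPM in the higher group, groups apart, no clone-based or small RNA names), up to 3 called genes in each direction and 2 not called per list, a preset group of genes, genes that crossed between 0.1 and 1 CPM, and those with the largest shift in share of reads; HMMR, CCNG2 and TXNIP were added after their values were seen. The list members and lists were chosen with earlier results of these data known. Promoters came from RefSeq (GRCh38.p14), matching 774 of 956 tested list members. Alternatives covered filters, scaling, DESeq2 1.42.0, limma 3.58.1, GC correction, a replicate block, all 12 libraries and leaving out each replicate. Figures were drawn with matplotlib 3.10.9. The table had no per-sample columns beyond the 12 used. Some genes and lists that the rules cover are not reported here.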

Additional observations from a re-analysis of the deposited data

How the results depend on the processing

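With library size alone 2866 genes were lower with KPT-330+CS than with DMSO. Past the study's limit, 1072 genes were higher and 238 lower with no filter on low counts, and 244 and 70 with a stricter one, which tested fewer genes. Leaving out 1 library gave 3961 to 5217 genes higher and 3293 to 4624 lower. The correlation of deviations between same-numbered DMSO and KPT-330+CS libraries was 0.36, -0.01 and 0.40. Between replicate 1 of one group and replicate 3 of the other it was -0.42 and -0.35. In both groups replicate 2 had the middle GC slope, so its -0.01 cannot decide whether the numbers pair the samples. The labels do not state a pairing, and the main fit used none. With a replicate block 6661 genes were higher and 6074 lower than with DMSO, and 2558 were lower than with CS. With that block 30 named genes not called without it were called, CDKN1A among them (adjusted p = 0.00718). Among named genes not called, 20 with values above 0 became higher calls with library size alone, as did 6 with values below 0, with log2 fold changes there for IPO8 (0.18), CDK2 (0.13), ORC6 (0.13), RPL23A (0.16), NPC1 (0.18) and B2M (0.18), where the median of all tested genes also moved from 0.03 to 0.22. Of 181 called genes that the naming rule took, 156 kept their call in every alternative run. A depth of at least 35325563 reads leaves genes with a few reads per group, such as TNF and CXCL10, known only by wide intervals.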
